A study of Mus musculus with 5 samples.

Results

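The 7 genes described here encode regulators and effectors of the CHOP branch of the stress response: Ddit3 (which encodes CHOP), Atf4, Atf5, Atf3, Trib3, Chac1 and Nupr1. They were found as the probes that the platform annotation names with these symbols, and each of the 7 had 1 probe, of 22871 probes and 16032 named genes on the array. The genes were selected on measured values, namely their difference between mouse embryonic stem (ES) cells with and without 4-hydroxytamoxifen (4OHT), so that difference is given as a description, with no test. Gene expression was measured on 5 one-colour arrays of cells that carry Akt-Mer, a membrane-tethered form of the kinase Akt joined to part of the estrogen receptor, which 4OHT makes active. All are male cells of strain 129, and the parent ES cells, E14tg2a and derivatives, grow without feeder cells.

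The reverted cells (1 array) are ES-like cells obtained from line 21 spheres by transient 4OHT treatment on embryonic fibroblasts. The Akt-spheres (1 array each from lines 42 and 21) were induced and expanded on OP9 stromal cells in OP9 medium with 1 µM 4OHT, which the cells had received for 3 days before induction. The OP9 cells were removed by letting them attach to a dish for 30 minutes. The remaining arrays hold line 21 ES cells with 1 µM 4OHT in ES cell culture and line 21 ES cells without 4OHT. Spheres and ES cells with 4OHT thus share the drug but not the medium or the feeder cells, and those differences cannot be told apart. Each group other than the spheres is 1 array, and the 2 sphere arrays come from 2 lines, so line and replicate cannot be told apart either. Nothing in the labels says that any arrays are repeated cultures, and a p-value below measures only the spread between these arrays.

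The summed intensity, in units of 10⁶, was 15.2 to 19.3 per array, and 1392 to 2084 probes had no value. The array of ES cells with 4OHT had both the highest sum and the fewest empty probes, and the part of this in the values below was not tested. The ES cell marker Nanog, a pluripotency factor, read 3839 to 5523 on all 5 arrays. Klf4 and Zfp42, which mark ES cells, were lower on both sphere arrays (97.4 and 134 for Klf4 and 1030 and 86.1 for Zfp42, in lines 42 and 21) than on the other arrays (1090 to 1573 and 11370 to 15996). Of 6 germ cell markers, 3 were at least 2-fold higher in both sphere lines than in ES cells with 4OHT (5.98% of all genes). Against ES cells without 4OHT 1 was higher (4.51%), and 0 were lower in either comparison (6.86% and 6.01%). Reverted cells had 1 lower (4.21%) and 0 higher (5.81%) against both sphere lines. Kit read 73.0 without and 13.4 with 4OHT in ES cells, and Dppa3 435 and 171. Against ES cells with 4OHT and reverted cells, Kit entered only through its sphere values, so it had to differ. The lines differed for Dppa3, at 9198 in line 42 and 223 in line 21. The 11 markers of stroma and fibroblasts summed to 1738 in reverted cells, 3087 and 1989 in line 42 and line 21 spheres, 2793 in ES cells with 4OHT and 3061 in ES cells without it. Vim, which many cell types express, was the highest of them on all arrays but that of reverted cells, where it was Acta2 (606). The OP9 line can form adipocytes, and of 6 adipocyte markers Fabp4 read 143 and 183 in line 42 and line 21 spheres, against 4.63 to 6.07 on the other arrays, and Adipoq 12.03 and 12.2, against 3.31 to 6.73. The rest did not share this pattern. Lpl read 208 and 325 in line 42 and line 21 spheres but 233 in ES cells with 4OHT. Pparg read 7.55 and 15.3 in those spheres but 29.3 in ES cells with 4OHT. Plin1 read 22.8 to 32.4, and Cd36 3.60 to 6.87 where it had a value. The 6 summed to 409 and 566 in spheres, 95.3 in reverted cells, 297 in ES cells with 4OHT and 136 in ES cells without it, and the part of such RNA in the sphere values below was not tested.

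Cells that run short of amino acids, misfold protein in the endoplasmic reticulum (ER) or lack heme activate kinases that phosphorylate the translation factor eIF2, an event known as the integrated stress response. General protein synthesis then drops, while the leader sequences of the Atf4, Atf5 and Ddit3 messages allow their translation. ATF4 is a basic leucine zipper (bZIP) transcription factor that binds, often together with C/EBP family members or CHOP, to C/EBP-ATF composite elements, and switches on genes of amino acid supply and a second wave of regulators that includes Ddit3, Atf3, Trib3, Chac1 and Nupr1. An array measures only the messages, not the translation step or the phosphorylation.

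RefSeq promoter windows (GRCm38.p6, 250 bases before to 50 after each gene's start) were matched for all 7 genes and searched on both strands for the composite element, written TGATGNAAN. It occurred in the windows of 4 of the 7 genes (Atf3, Chac1, Nupr1 and Trib3), against 3.95% of all 32851 windows in the table. The windows of Atf4, Atf5 (2 windows) and Ddit3 held no match. Bases outside the windows were not searched, so these genes may hold the element elsewhere. The cAMP response element TGACGTCA (1.79% of all windows), the ER stress element known as ERSE (0.119%) and the FoxO site TTGTTTAC (1.23%) had no match in the windows of these 7 genes. The sequences of the 4 genes with a match are shown 5′ to 3′ along the gene, with the match in capitals, and that of Ddit3 is shown beside them because it is the gene the pathway is named for. They run over the 250 bases before the start, and for Trib3 on to the end of its match. The capitals are the reverse complement of the element, and a match is a description of letters, not a shown binding site.
Nupr1 (chr7:126625471-126625720, minus strand): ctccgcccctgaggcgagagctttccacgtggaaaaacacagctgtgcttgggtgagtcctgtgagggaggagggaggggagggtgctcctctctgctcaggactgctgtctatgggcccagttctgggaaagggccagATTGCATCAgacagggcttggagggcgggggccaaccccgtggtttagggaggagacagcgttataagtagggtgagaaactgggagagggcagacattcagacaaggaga
Chac1 (chr2:119350992-119351241, plus strand): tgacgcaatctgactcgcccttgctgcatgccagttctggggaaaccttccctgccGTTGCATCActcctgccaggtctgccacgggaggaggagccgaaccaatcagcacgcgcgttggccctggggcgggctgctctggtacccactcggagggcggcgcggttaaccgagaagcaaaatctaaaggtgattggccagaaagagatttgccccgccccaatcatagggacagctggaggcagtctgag
Atf3 (chr1:191183334-191183583, minus strand): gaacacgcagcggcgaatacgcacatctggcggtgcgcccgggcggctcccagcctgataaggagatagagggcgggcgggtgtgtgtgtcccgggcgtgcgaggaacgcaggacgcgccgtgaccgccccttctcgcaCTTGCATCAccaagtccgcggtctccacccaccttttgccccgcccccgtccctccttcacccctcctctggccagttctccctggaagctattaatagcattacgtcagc
Trib3 (chr2:152344039-152344310, minus strand): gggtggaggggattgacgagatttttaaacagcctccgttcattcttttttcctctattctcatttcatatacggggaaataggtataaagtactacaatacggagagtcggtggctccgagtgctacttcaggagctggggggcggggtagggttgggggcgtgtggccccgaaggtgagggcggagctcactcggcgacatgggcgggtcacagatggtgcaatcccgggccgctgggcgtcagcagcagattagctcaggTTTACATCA
Ddit3 (chr10:127290543-127290792, plus strand): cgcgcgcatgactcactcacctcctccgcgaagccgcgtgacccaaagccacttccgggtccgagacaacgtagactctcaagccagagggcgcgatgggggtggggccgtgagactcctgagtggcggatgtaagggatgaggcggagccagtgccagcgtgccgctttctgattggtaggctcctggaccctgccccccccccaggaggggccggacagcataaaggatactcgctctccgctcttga
The match ran from 111 to 103 bases before the start in both Nupr1 and Atf3, and from 194 to 186 bases before it in Chac1. In Trib3 it lay after the start, at bases 14 to 22. The matched letters were ATTGCATCA in Nupr1, CTTGCATCA in Atf3, GTTGCATCA in Chac1 and TTTACATCA in Trib3, so the first 3 share TTGCATCA.

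All values are the intensities the authors deposited, on a linear scale on which the median probe of each array reads 50. Each of the 7 genes had a value on all 5 arrays, and all 7 read highest in ES cells with 4OHT. The 7 differ in how the other 4 arrays are ordered.

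Among the transcription factors, Atf4, the regulator at the head of the branch, read 3203 in reverted cells, 3054 and 2357 in line 42 and line 21 spheres, 6745 in ES cells with 4OHT and 3028 in ES cells without it. The 4 arrays other than ES cells with 4OHT lay within 1.33-fold of each other. Ddit3, whose product CHOP dimerises with other bZIP proteins and is linked to cell death under lasting ER stress, read 288 in reverted cells, 257 and 303 in line 42 and line 21 spheres, 3073 in ES cells with 4OHT and 297 in ES cells without it. After centring, its 4 other arrays lay within 1.24-fold, the narrowest range of the 7 genes. The array of ES cells with 4OHT was then 9.39-fold above the next highest, that of ES cells without it.

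Atf5, a close relative of Atf4 that also acts in the mitochondrial stress response, read 233 in reverted cells, 341 and 241 in line 42 and line 21 spheres, 882 in ES cells with 4OHT and 131 in ES cells without it. It was the only one of the 7 that was lowest in ES cells without 4OHT, so both sphere arrays and the reverted array lay between the ES cell arrays. Atf3, a stress-inducible bZIP factor that often acts as a repressor, read 49.7 in reverted cells, 9.46 and 10.1 in line 42 and line 21 spheres, 69.5 in ES cells with 4OHT and 10.2 in ES cells without it. Here 2 arrays were high, ES cells with 4OHT and reverted cells, only 1.36-fold apart. The other 3 arrays were below the 40th percentile of their probes (28.6 to 29.3), where intensities near background have little resolution.

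Of the effectors, Trib3, a pseudokinase induced by ATF4 and CHOP and reported to bind and restrain Akt in mouse liver, read 104 in reverted cells, 86.7 and 62.8 in line 42 and line 21 spheres, 400 in ES cells with 4OHT and 115 in ES cells without it. Its 4 other arrays lay within 1.88-fold. Chac1, an enzyme that breaks down glutathione, read 124 in reverted cells, 314 and 363 in line 42 and line 21 spheres, 1660 in ES cells with 4OHT and 258 in ES cells without it. Reverted cells were its lowest array. Nupr1, a small chromatin-associated stress protein, read 22.6 in reverted cells, 15.9 and 14.4 in line 42 and line 21 spheres, 1467 in ES cells with 4OHT and 93.8 in ES cells without it. It had the widest range of the 7 over the 4 other arrays (6.37-fold), and only the ES cell arrays were above the 40th percentile.

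**Figure D1:**
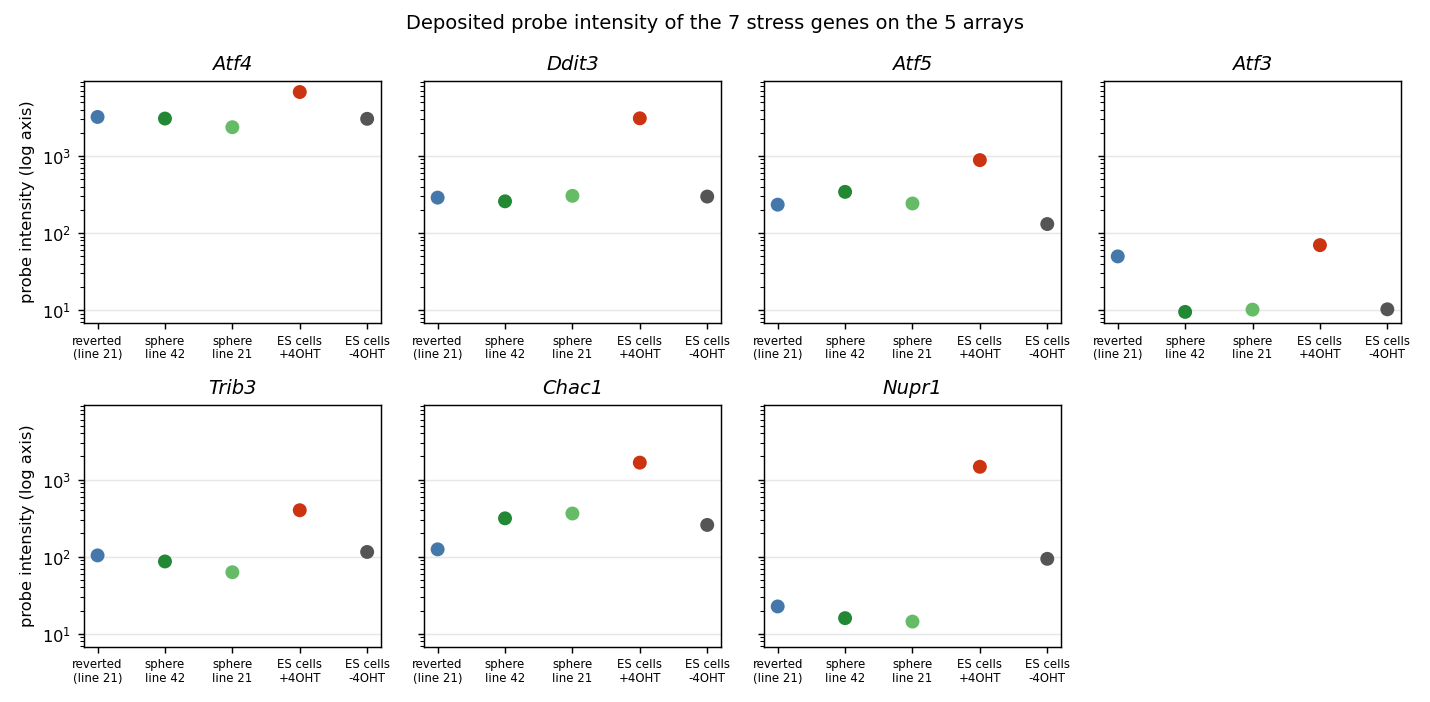
Deposited probe intensity (log axis) of each of the 7 stress genes on the 5 arrays, 1 point per array, with no error bars because each point is a single array. The array of ES cells with 4OHT is the highest in every panel, and Atf3 alone has a second high array, that of reverted cells.

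The sphere lines differed for these genes about as they did for genes in general. In the 5 genes that passed the filter on dim probes, the SD on the log2 scale was 0.18 (Chac1) to 0.32 (Atf5). The median over all genes was 0.28. As mean ± SD over the 2 sphere arrays, Ddit3 read 280 ± 32.4, Atf4 2706 ± 493, Atf5 291 ± 70.8, Chac1 339 ± 34.6, Trib3 74.8 ± 16.9, Atf3 9.79 ± 0.467 and Nupr1 15.2 ± 1.10 (n = 2). Line 42 was above line 21 for Atf4, Atf5, Trib3 and Nupr1 and below it for Ddit3, Chac1 and Atf3. None of the 7 was 2-fold apart between the lines, the largest difference of the 5 genes that passed the filter on dim probes being that of Atf5 (1.36-fold), where 15.7% of 9954 genes were at least 2-fold apart.

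The contrast behind the choice of genes, line 21 ES cells with against without 4OHT, compares 1 array with 1 array. The difference was 14.1-fold for Nupr1, 9.39-fold for Ddit3, 6.11-fold for Atf5, 5.83-fold for Chac1, 5.72-fold for Atf3, 3.15-fold for Trib3 and 2.03-fold for Atf4, all higher with 4OHT. Of 9852 genes compared, 252 (2.56%) were higher by 2-fold or more and 236 (2.4%) were lower by as much. Without centring of the arrays the split was 363 to 166, and the median of all genes moved to 0.11 on the log2 scale. Ranked by log2 difference among all genes compared, Nupr1 stood at rank 1, Ddit3 at 3, Atf5 at 9, Chac1 at 10, Atf3 at 11, Trib3 at 52 and Atf4 at 239. Nothing is read from these counts and ranks about the genes, which were picked for them.

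**Figure D2:**
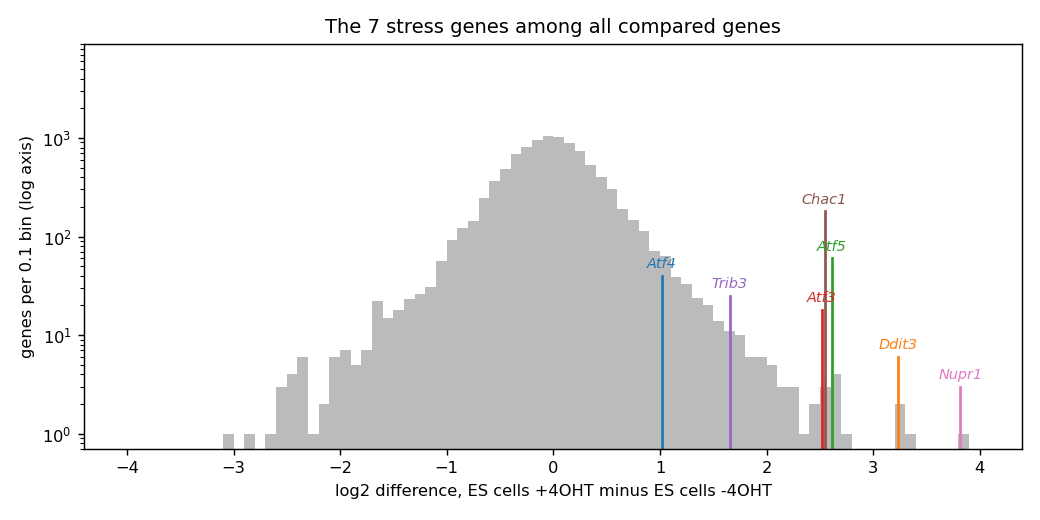
Number of genes (log axis) per bin of the log2 difference between ES cells with and without 4OHT, 1 array each, with the 7 stress genes as coloured lines whose heights carry no value. Nupr1 (3.82), Ddit3 (3.23), Atf5 (2.61), Chac1 (2.54) and Atf3 (2.52) lie in the right-hand tail, while Atf4 (1.02) lies at its shoulder.

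Reverted cells were set against the spheres, the 1 comparison with replicate arrays that shares no array with that contrast. Atf3 was higher in reverted cells, by 4.85-fold and 4.40-fold against line 42 and line 21 spheres (log2 2.21, SE 0.41, limma adjusted p = 0.298). Both sphere values lie below the 40th percentile, so Atf3 entered this comparison only through the reverted array, where it was high, and had to differ. Chac1 was lower in reverted cells, by 2.51-fold and 3.01-fold (log2 -1.46, SE 0.42, limma adjusted p = 0.455). Neither passed the threshold of 0.05 over all genes. The log2 differences of the others were 0.46 for Trib3 (SE 0.44, limma adjusted p = 0.900), 0.23 for Atf4 (0.43 and 0.955), -0.32 for Atf5 (0.45 and 0.936) and 0.02 for Ddit3 (0.42 and 0.997), each smaller than or close to its standard error. Nupr1 was below the filter on all 3 arrays and was not tested.

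Of 10328 genes in this comparison, 10.0% were at least 2-fold apart the same way from both sphere lines (5.81% higher and 4.21% lower in reverted cells), and nothing is read against this from Atf3, which passed the filter only through the array where it was high. Of the 5 genes above the 40th percentile on all arrays, Chac1 alone was 2-fold apart, lower in reverted cells. limma had 1 residual degree of freedom, from the 2 sphere arrays, and assumed that the reverted array varies as they do. It called 0 genes at an adjusted p of 0.05 (0.0%), the smallest being 0.220, with 920 (8.91%) at an unadjusted p under 0.05. Atf3 (0.00485) and Chac1 (0.0232) were among these before limma's p-values were adjusted.

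Spheres against ES cells with 4OHT, both with the drug, use an array of the contrast behind the choice, so the values are a description. The difference was -6.45 on the log2 scale for Nupr1 (84.6-fold and 89.8-fold lower in line 42 and line 21 spheres), -3.39 for Ddit3 (11.6-fold and 9.51-fold), -2.65 for Atf3 (6.58-fold and 5.97-fold) and -2.36 for Trib3 (4.47-fold and 5.92-fold). It was -2.23 for Chac1 (5.14-fold and 4.29-fold), -1.55 for Atf5 (2.52-fold and 3.43-fold) and -1.27 for Atf4 (2.15-fold and 2.69-fold). In both lines, 6.86% of the 10407 genes compared were lower by 2-fold or more, as all 7 were, and 5.98% were higher. Atf3 and Nupr1 passed the filter only through the array of ES cells with 4OHT.

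Against ES cells without 4OHT, Nupr1 was the 1 gene of the 7 at least 2-fold apart in both sphere lines, lower by 6.00-fold and 6.37-fold in lines 42 and 21 (log2 -2.63), where 6.01% of 10283 genes were lower by as much in both lines and 4.51% higher. Nupr1 passed the filter here only through the array of ES cells without 4OHT, where it was high, so it had to differ and its folds rest on dim sphere values. Atf5 was higher by 2.43-fold and 1.78-fold (log2 1.06), so that it was 2-fold higher in line 42 alone. Trib3 (-0.71), Atf4 (-0.25), Ddit3 (-0.16) and Chac1 (0.31) were less than 2-fold apart in either line, and Atf3 was below the filter on all 3 arrays.

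Reverted cells against ES cells without 4OHT again compare 1 array with 1 array. Atf3 was 4.21-fold higher in reverted cells, Nupr1 4.30-fold lower and Chac1 2.21-fold lower, while Atf5 was 1.66-fold higher and Trib3 (log2 -0.25), Ddit3 (-0.14) and Atf4 (-0.02) were less than 1.2-fold apart. Of 9939 genes, 5.18% were higher by 2-fold or more and 6.34% lower. Atf3 passed the filter here only through the reverted array and Nupr1 only through that of ES cells without 4OHT. Each was high on that array and had to differ, so nothing is read from Atf3 and Nupr1 against these shares. Beside the level of Atf3 in reverted cells, which were grown on fibroblasts, 7 of 11 stroma and fibroblast markers were at or above the 40th percentile on that array, against 4 on each sphere array and 5 on each ES cell array. Of the 7 compared with ES cells without 4OHT, 0 were at least 2-fold higher in reverted cells and 2 lower (median log2 0.09). Against both sphere lines 2 were higher (5.81% of all genes) and 1 lower (4.21%). Those higher were Thy1 and Acta2, at 230 and 606 in reverted cells, 331 and 415 in ES cells with 4OHT and 464 and 476 in ES cells without it. Against the spheres Thy1 passed the filter only through the reverted array, where it was high, so it had to differ. The part of fibroblast RNA in the level of Atf3 was not tested.

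**Figure D3:**
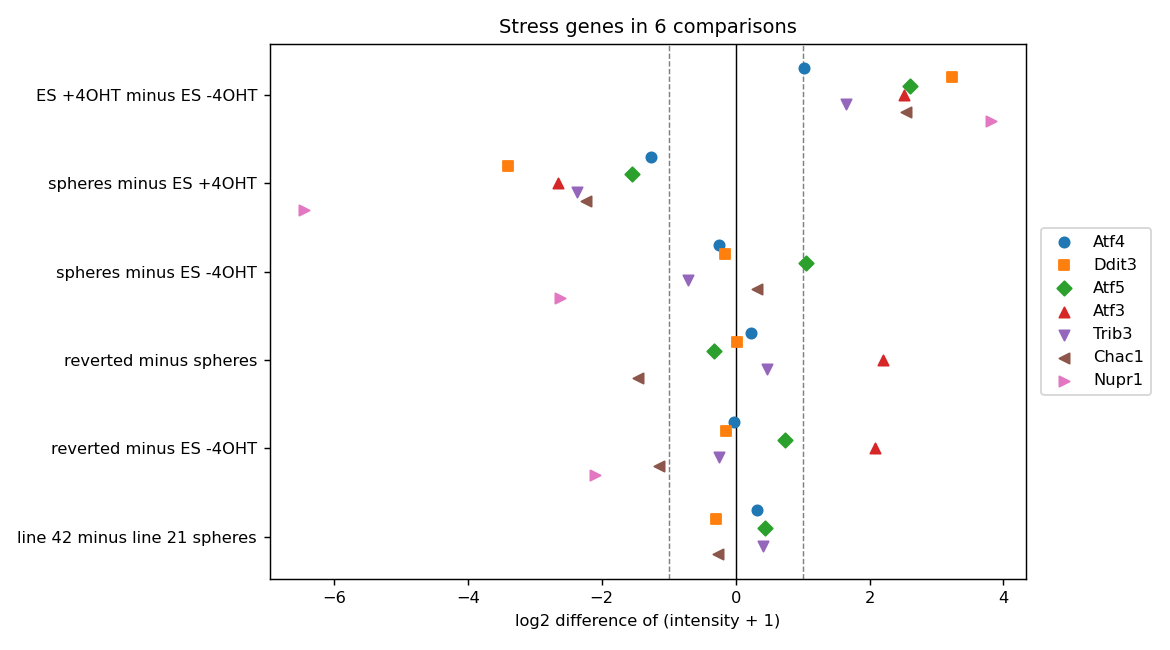
Log2 difference of each stress gene in the 6 comparisons, with dashed lines at 2-fold. All 7 lie right of the upper line for ES cells with against without 4OHT (Atf4 at 1.02), and in reverted cells Atf3 (2.21 against spheres) and Chac1 (-1.46) stand on opposite sides. A gene below the filter in a comparison has no point.

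Of 13 genes of the kinases and the eIF2 machinery upstream of these genes, 0 were 2-fold apart with 4OHT in ES cells (median log2 0.04, against -0.03 over all genes, of which 2.56% were higher and 2.4% lower). The count was also 0 for spheres against ES cells with 4OHT (12.8% of all genes) and without it (10.5%), and for reverted cells against spheres (10.0%). In reverted cells against ES cells without 4OHT 2 of 13 were lower (15.4%, against 6.34% of all genes), and between line 42 and line 21 spheres 2 were higher and 2 lower, where 15.7% of all genes were apart. The largest difference with 4OHT was that of Ppp1r15a, a phosphatase subunit that reverses eIF2 phosphorylation and is itself induced by ATF4 and CHOP, at 232 with and 145 without 4OHT (1.45-fold). Eif2ak3, the ER stress kinase PERK, read 159 with and 181 without 4OHT, and Eif2s1, which encodes the phosphorylated subunit, read 42.0 and 32.6. In reverted cells against spheres, Ppp1r15a (1.93-fold), Eif2ak4, the amino acid sensor GCN2 (1.80-fold), and Impact, which restrains GCN2 (1.71-fold), had the largest differences, all higher in reverted cells. Eif2b3 was lower by nearly as much as Impact was higher (1.71-fold). The sphere lines differed for Eif2ak4, at 97.5 and 231 in lines 42 and 21, against 276 in reverted cells. They also differed for Eif2b3, at 1647 and 684 against 631.

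Of 23 other bZIP genes compared, 2 were at least 2-fold higher with 4OHT (8.70%, against 2.56% of all genes) and 0 lower (median log2 0.21). Cebpb, a partner of ATF4 and CHOP, read 1157 with and 433 without 4OHT (2.43-fold). Jdp2, a repressor related to Atf3, read 59.6 with and 24.0 without 4OHT (2.21-fold), and Atf6, an ER stress sensor, read 40.7 and 18.6 (1.94-fold). Jdp2 and Atf6 passed the filter here only through the array of ES cells with 4OHT, where they were high. In spheres against ES cells with 4OHT, 4 of 23 were lower in both lines (Fosl1, Jdp2, Nfe2l2 and Atf6), or 17.4% against 6.86% of all genes. Fosl1, Jdp2 and Atf6 passed the filter only through the array of ES cells with 4OHT, where they were high. They had to differ, so nothing is read from that count. Nfe2l2, the oxidative stress factor NRF2, read 99.0 and 188 in line 42 and line 21 spheres, against 586 in ES cells with 4OHT. In reverted cells against spheres, 2 of 21 were higher from both lines (9.52%, against 5.81% of all genes): the AP-1 factor Fosl1, at 63.9 in reverted cells against 5.35 and 9.17 in line 42 and line 21 spheres, and the small Maf factor Maff, at 109 against 20.5 and 43.7. Fosl1 passed the filter only through the reverted array, where it was high. It had to differ, so nothing is read from this count either. The AP-1 genes Fos (log2 0.34), Jun (-0.15), Junb (0.77) and Fosb (-0.59) were not 2-fold apart from both lines. Trib2, a paralog of Trib3, was lower with 4OHT, at 33.9 with and 87.8 without it (2.80-fold), the opposite direction to Trib3. In spheres it read 229 and 374 in lines 42 and 21, 8.77-fold above ES cells with 4OHT.

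Targets of ATF4 and CHOP other than the 7 genes were higher by 2-fold or more with 4OHT in 12 of 40 compared (30%, against 2.56% of all genes) and lower in 0, with a median log2 difference of 0.59. The largest were those of Mthfd2, a mitochondrial folate enzyme, at 5266 with and 695 without 4OHT (6.88-fold), Nars, the asparaginyl-tRNA synthetase, at 6327 and 1400 (4.11-fold), and Cth, which makes cysteine, at 3442 and 864 (3.62-fold). Of the 12, Vldlr, Vegfa and Adm2 passed the filter only through the array of ES cells with 4OHT, where they were high. In spheres against ES cells with 4OHT, 9 of 40 (22.5%, against 6.86% of all genes) were lower and 2 higher in both lines (median -0.71). Adm2, among those lower, again passed the filter only through the array of ES cells with 4OHT, where it was high, so it had to differ. Cth was lowest in spheres, at 154 and 364 in lines 42 and 21 (13.9-fold below ES cells with 4OHT), and Herpud1, an ER degradation factor, read 15.0 and 38.4 in lines 42 and 21, against 143 in ES cells with 4OHT (5.50-fold). The lipoprotein receptor gene Vldlr ran the other way, at 255 and 386 in spheres against 48.1 (6.68-fold higher). In reverted cells against spheres, 3 of 38 were higher (7.89%, against 5.81% of all genes) and 7 lower (18.4%, against 4.21%). Vegfa, among those lower, passed the filter only through the sphere arrays, where it was high. Cth was 7.39-fold higher in reverted cells, while Vldlr was 9.21-fold and the proline enzyme Pycr1 4.66-fold lower.

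Cell death genes linked to CHOP showed 0 of 8 apart by 2-fold with 4OHT (2.56% of all genes were higher and 2.4% lower), the largest difference being that of Bcl2l11, which encodes the death protein BIM, at 51.5 with and 83.7 without 4OHT (1.77-fold lower). In spheres against ES cells with 4OHT, 2 of 8 were lower in both lines, where 6.86% of all genes were: Pmaip1, which encodes NOXA, read 12.3 and 4.72 in lines 42 and 21, against 310 (34.2-fold lower), and its survival counterpart Mcl1 read 1117 and 1513 against 5754 (4.24-fold lower). In reverted cells against spheres 3 of 8 were higher, where 5.81% of all genes were: Pmaip1 (9.03-fold), Mcl1 (2.94-fold) and the phosphatase gene Dusp1 (4.81-fold). In both comparisons Pmaip1 passed the filter only through the array where it was high, so it had to differ. ER chaperones and other genes of the unfolded protein response were 2-fold higher with 4OHT in 0 of 22 and lower in 1 (4.55%, against 2.4% of all genes), Derl3 (2.21-fold), with a median of -0.12. The next largest differences were those of Derl1 (1.75-fold) and Ufm1 (1.63-fold), both higher with 4OHT. None of the 22 was 2-fold apart in both lines for spheres against ES cells with 4OHT (12.8% of all genes) or for reverted cells against spheres (10.0%). Hspa5, the main ER chaperone BiP, read 3630 and 6598 in line 42 and line 21 spheres, against 3127 in ES cells with 4OHT, and 4119 in ES cells without it.

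**Figure D4:**
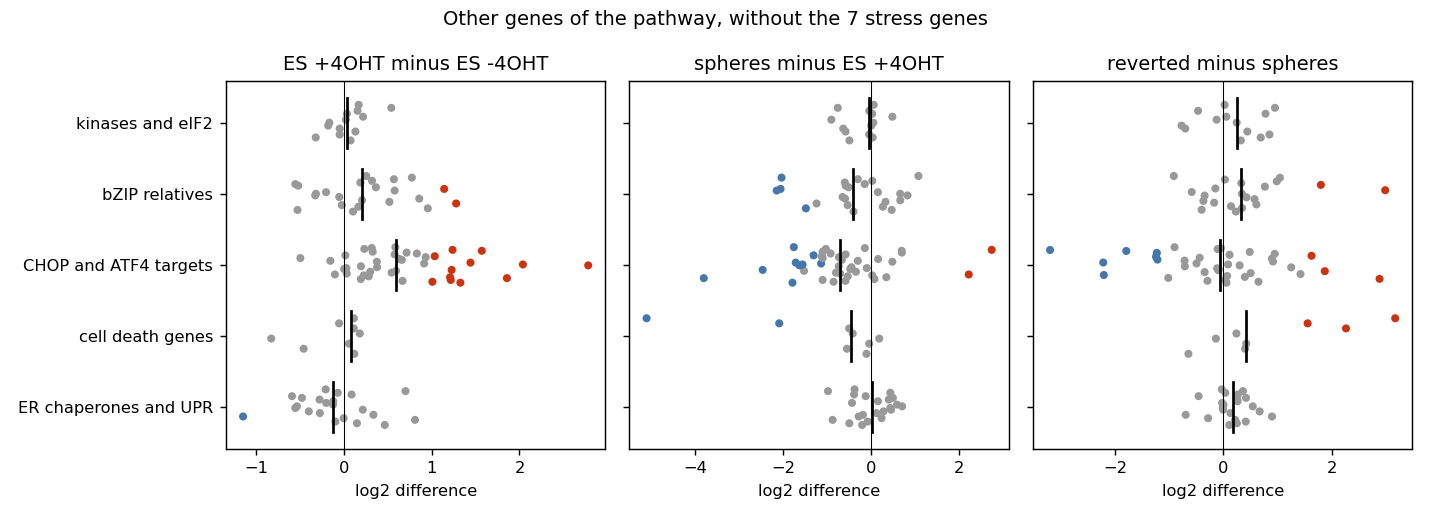
Log2 differences of the other pathway genes in 3 comparisons, 1 point per gene, red where at least 2-fold higher and blue where lower by as much (in each of the sphere lines, where spheres are compared), with the list median as a black bar. The ATF4 and CHOP targets have a median of 0.59 with 4OHT in ES cells, while the ER chaperones have one of -0.12.

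To compare shapes, each gene's log2 values were centred on its own mean over the 5 arrays, and the root mean square distance between 2 genes was taken over the 5 arrays. Among the 21 pairs of the 7 genes, Atf4 and Trib3 were nearest (0.41 log2 units) and Atf5 and Nupr1 farthest (2.03). The profile nearest to the mean of the 7 was that of Ddit3 (0.30), followed by that of Trib3 (0.30). Nupr1 was farthest from it (1.46), with 4.53 in ES cells with 4OHT and 0.71 in those without it, then Atf3 (0.84), which was above its mean in reverted cells (1.21).

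Of 10582 other genes, those nearest to the mean profile were Dyrk4 (0.18), Wdr20 (0.28), Gpr135 (0.28), Slamf9 (0.33), Serpinb9g (0.34), Tnfaip8l2 (0.35), Traf3ip2 (0.35), Apom (0.37), Kctd4 (0.38) and Got1l1 (0.38). Most of them are dim probes, and the other probe of Wdr20 did not share the shape, at 31.3 in ES cells with 4OHT and 25.9 in those without it. The ranking took genes at or above the 40th percentile on at least 1 array. Dyrk4, Gpr135, Serpinb9g, Tnfaip8l2, Apom and Kctd4 reached it only in ES cells with 4OHT, so they had to be highest there. Dyrk4, a protein kinase gene, read 6.43 in reverted cells, 6.80 and 5.00 in line 42 and line 21 spheres, 39.3 in ES cells with 4OHT and 5.41 in ES cells without it. Traf3ip2, an adaptor of interleukin-17 signalling, was brighter, at 83.9 in reverted cells, 93.7 and 55.9 in spheres, 408 in ES cells with 4OHT and 125 in ES cells without it. The genes nearest to Ddit3 alone were Gpr135 (0.37), Dyrk4 (0.41), Wdr20 (0.41), G0s2, an inhibitor of fat breakdown (0.53), and Tnfaip8l2 (0.53). With 5 arrays, of which 1 is high, many genes can share such a shape.

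**Figure D5:**
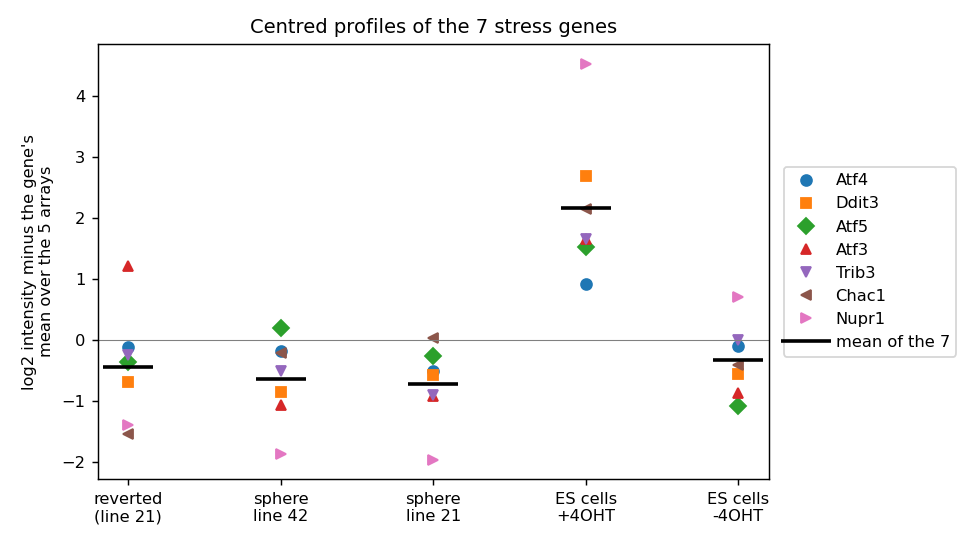
Log2 intensity of each of the 7 genes minus its own mean over the 5 arrays, with the mean of the 7 as a black bar. The bar stands at 2.16 in ES cells with 4OHT and between -0.73 and -0.33 on the other 4 arrays, where Atf3 in reverted cells (1.21) is the point farthest above it.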

How the data were processed

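Total RNA was amplified to amino allyl antisense RNA, coupled to Cy5 and hybridised to arrays of the maker Toray, per the labels' protocols. The values are the probe intensity values the authors deposited, on a linear scale with a median of 50 on each array. How the arrays were scanned, background-corrected and normalized is not given in the sources used here, and empty cells were not filled in. Probes were named from the platform annotation (16264 with 1 symbol, 6607 unnamed), and symbols were updated through the RefSeq table of GRCm38.p6 (3787 through a synonym, 61 kept as given). A gene with several probes was represented by the brightest. Values were taken to log2(value + 1), and the median of the 18884 probes with a value everywhere was made equal between arrays (shifts of -0.06 to 0.08). Folds are on this scale and understate the change of dim genes.

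A comparison took in the genes that had values on all of its arrays and lay at or above the 40th percentile on 1 or more of them. The test used limma (version 3.58.1, with R version 4.3.3), fitted by lmFit and eBayes to a mean per group with p-values adjusted after Benjamini and Hochberg over all genes, and was tested on simulated data. Precision is limited by the number of arrays. Of the 6 comparisons, the others were counts of genes at least 2-fold apart, with no test. The 7 genes and the pathway lists were chosen with earlier results of these data known, so the lists are no independent support. Named pathway genes were taken from the 3 with the largest difference per list in each of 3 comparisons, not all of which are named, with a few others described. Marker genes, the AP-1 genes and Atf6 in spheres were named after their values were seen.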

Additional observations from a re-analysis of the deposited data

How the results depend on the processing

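Values of the 7 genes were recomputed under 8 alternatives (a pseudocount of 16, no filter, a filter at the 60th percentile, no centring, quantile normalization, the mean of all probes, and leaving out each sphere array). Of 261 recomputed log2 differences, 0 reversed and 254 moved by less than 0.28, the median SD between the sphere arrays over genes. Many of them could not move. Each gene has 1 probe, so the mean of all probes changes nothing, and the filters only choose which genes are compared. Leaving out the centring shifts all genes of a comparison by the same small amount. The count therefore speaks only to the pseudocount, quantile normalization and the leaving out of a sphere array. The 7 that moved were all from the pseudocount of 16, for the dim Atf3 (1.59 with against without 4OHT and 1.33 in reverted cells against spheres) and Nupr1 (-5.52 in spheres against ES cells with 4OHT), and 0 lost the 2-fold mark. Taking line 42 spheres alone, Atf5 passed 2-fold against ES cells without 4OHT.

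Over all genes, 488 were 2-fold apart with against without 4OHT, against 313 with the stricter filter, 752 with none and 311 with the pseudocount of 16. With 1 sphere array, 1705 to 2284 genes were apart in reverted cells against spheres (1035 with both), 2132 to 2702 in spheres against ES cells with 4OHT (1336) and 1890 to 2266 against ES cells without it (1082), since fewer arrays must agree. limma called 0 genes under all alternatives that could be fitted (868 to 1152 under the other 5 and 650 under the stricter filter at an unadjusted p under 0.05), and without a sphere array it had no residual degrees of freedom. No paired analysis was possible because the groups compared share fewer than 2 replicate numbers. Single arrays and dim values limit the precision, such as those of Atf3 and Nupr1, each below the 40th percentile on 3 of 5 arrays.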
